A study of Sus scrofa with 8 samples.

Results

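Integrins are cell-surface receptors made of an alpha and a beta subunit that tie the extracellular matrix to the actin cytoskeleton. Talins are large cytoplasmic proteins that bind the tails of beta subunits, switch the receptors to their active form and carry force from them to actin. In skeletal muscle these proteins sit at costameres and at the ends of the fibres, where they anchor the contractile apparatus to laminin, and beta 1 integrin and talins are known to be needed for the fusion of myoblasts and the assembly of sarcomeres. The genes described here are the alpha subunits ITGA3, ITGA5, ITGA6, ITGA7 and ITGAV, the beta subunits ITGB1, ITGB3 and ITGB5, and the talins TLN1 and TLN2, a set of 10 chosen by name. Of these, 7 were found by the gene name in a table of 25285 genes. A further 2 were found by their Ensembl identifier, ITGB3 under its antigen name CD61 and TLN2 in a row without a name. ITGA7 was matched to no row and is not analysed here, so the alpha subunit best known from mature muscle is missing from every count and share below, and the 9 matched genes are called the members.

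RNA was sequenced from primary cells of pig skeletal muscle, strain LYD as the labels give it, which the protocol calls MuSCs. The cultures were sampled before or after differentiation, here called undifferentiated and differentiated, with 2 libraries from females and 2 from males in each state. The labels give no age, no medium, no time in culture and no statement that replicates came from separate animals, so the tests measure the spread between these libraries only. All values are FPKM (fragments scaled to transcript length and to library size), which is a level per length. It allows different genes to be set side by side as far as their gene models are complete.

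The muscle differentiation markers separated the states. Summed over 6 genes of muscle differentiation, such as MYH3 and ACTA1, the level was 52.6 to 156 FPKM in undifferentiated and 9392 to 13437 FPKM in differentiated libraries. Of the 3 matched myoblast markers, the transcription factors MYOD1 and MYF5 were lower in every differentiated library, MYOD1 at 156 to 221 and then 80.1 to 105 FPKM and MYF5 at 221 to 315 and then 50.9 to 108 FPKM. The intermediate filament gene DES, also a marker of formed muscle, was higher in each of them, at 195 to 375 and then 999 to 1477 FPKM, so that the sum of the 3 was 613 to 912 and then 1181 to 1665 FPKM. PAX7 is not analysed here. Read depth is unknown, but from the commonest ratio of low values the undifferentiated libraries were 1.66 to 2.34 times and the others 1.25 to 1.61 times as deep as differentiated female replicate 1. Markers of endothelial cells summed to at most 7.49 FPKM in any library, of immune cells to at most 4.57 FPKM, and of platelets and megakaryocytes to at most 1.23 FPKM, with EMCN and PF4 listed at 0 in all 8 libraries. Differentiated male replicate 1 stood apart from the other 3 differentiated libraries. Its proliferation markers summed to 59.2 FPKM against 14.2 to 21.1 FPKM, its fibroblast markers to 344 against 253 to 316 FPKM, and its muscle differentiation markers to 9392 against 11685 to 13437 FPKM.

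The comparison of differentiated with undifferentiated cells asks how the adhesion receptors changed with the state of the cultures. Of the 9 members, all of which passed the filter of a mean of at least 1 FPKM, 6 fell and 0 rose (limma, Benjamini-Hochberg adjusted p under 0.05 over all tested genes). Among all 12963 tested genes 31.9% fell and 18.0% rose. At an unadjusted p under 0.05, limma gave 0 members that were higher and 6 that were lower, where 20.7% and 36.0% of all tested genes were. ITGA3, ITGAV, ITGB5 and TLN2 fell the most, ITGA6 and ITGB1 fell least, and ITGA5, ITGB3 and TLN1 did not pass. The median log2 fold change of the members was -0.67, against -0.18 over all tested genes. Beside these falls, the 4 proliferation markers summed to 163 to 238 FPKM in undifferentiated and 14.2 to 59.2 FPKM in differentiated libraries. The 4 matched fibroblast markers, mostly COL3A1, summed to 71.0 to 142 and then 253 to 344 FPKM, and the 4 smooth muscle and pericyte markers, mostly ACTA2, to 8.61 to 26.6 and then 999 to 1169 FPKM. Of the latter, MYH11 was at most 0.0931 FPKM and RGS5 at most 1.81 FPKM in any library. CNN1 went from 0.113 to 0.448 FPKM to 2.88 to 5.48 FPKM. The part of all these markers in the members' changes was not tested. In bulk RNA, fewer cells of a type and less RNA per cell cannot be told apart.

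Scaling bears on these counts. Median-ratio scaling moved the median of all tested genes by 0.20 on the log2 scale, to 0.02, and with it 3220 genes rose and 2920 fell, against 2339 and 4137 without it. Under that scaling 4 members fell, since ITGA6 and ITGB1 no longer passed. Without differentiated male replicate 1, 6 members fell and 0 rose.

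**Figure D1:**
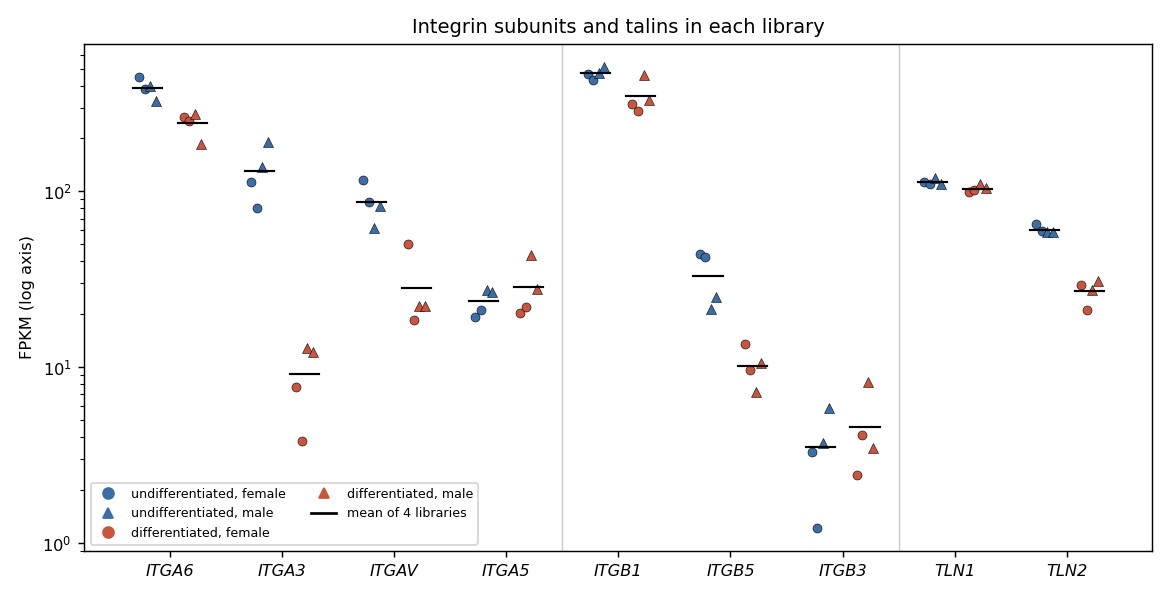
FPKM on a log axis for each of the 9 matched genes in the 8 libraries, with circles for females, triangles for males, blue for undifferentiated and red for differentiated cells, and a bar at the mean of the 4 libraries of a state. ITGA3 shows the widest gap between the states, and ITGB1 and ITGA6 stand highest in both.

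Among the alpha subunits, ITGA6 was the most abundant in every library. It pairs with beta 1 as a laminin receptor of myoblasts. It lies on chromosome 15 (ENSSSCG00000015955, 87830505 to 87900014, plus strand of Sscrofa10.2, as all positions here). Its level was 445 and 380 FPKM in undifferentiated females, 398 and 326 in undifferentiated males, 264 and 252 in differentiated females, and 277 and 186 in differentiated males. All 4 differentiated libraries lay below all 4 undifferentiated ones. The mean fell from 387 ± 49.2 to 245 ± 40.6 FPKM (SD, n = 4 libraries in each state, log2 -0.67 ± 0.155 SE, limma adjusted p = 0.0138). The call ended under median-ratio scaling (log2 -0.44, limma adjusted p = 0.0539) and without undifferentiated female replicate 1 (log2 -0.61, limma adjusted p = 0.0509). Even so ITGA6 kept a high place among the tested genes, at the percentile 97.0 to 97.5 of the undifferentiated and 96.1 to 96.9 of the differentiated libraries.

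ITGA3, the alpha subunit of a laminin receptor also common in epithelia, had the largest fall of the set (ENSSSCG00000017578, chromosome 12, 26250190 to 26308837, plus strand). Undifferentiated females had 112 and 80.2 FPKM and undifferentiated males 138 and 191 FPKM. After differentiation the females had 7.68 and 3.81 FPKM and the males 12.8 and 12.2 FPKM. The states were far apart, with a ratio of the means of 14.3, and within each state both females were below both males. The log2 fold change was -3.75 ± 0.230 SE (limma adjusted p = 0.000114), and it stayed between -3.96 and -3.53 over the 14 alternatives. ITGA3 went from the percentile 91.2 to 95.6 of tested genes in undifferentiated libraries to 26.9 to 55.5 in differentiated ones.

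ITGAV forms the receptors for vitronectin, fibronectin and latent TGF-beta together with beta 1, 3, 5, 6 or 8 (ENSSSCG00000016027, chromosome 15, 101580814 to 101720783, plus strand). It was at 116 and 87.2 FPKM in undifferentiated females and at 61.5 and 82.5 FPKM in undifferentiated males. Differentiated females had 50.1 and 18.6 FPKM, and both differentiated males had 22.2 FPKM. The groups did not overlap, though differentiated female replicate 1, the shallowest library, stood well above the other differentiated ones. ITGAV fell from 86.7 ± 22.3 to 28.3 ± 14.7 FPKM (SD, n = 4, log2 -1.66 ± 0.311 SE, limma adjusted p = 0.00611), and without differentiated female replicate 1 the limma adjusted p was 0.00156.

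ITGA5, the alpha subunit of the main fibronectin receptor, took another course (ENSSSCG00000000293, chromosome 5, 20442128 to 20465312, minus strand). Its levels were 19.3 and 21.3 FPKM in undifferentiated females, 27.4 and 26.8 in undifferentiated males, 20.3 and 22.0 in differentiated females, and 43.7 and 27.7 in differentiated males. The states overlapped, and in both of them the females were below the males. The log2 fold change was 0.21 with a 95% interval of -0.16 to 0.57 (limma adjusted p = 0.3). Without differentiated male replicate 1, where ITGA5 was highest, it was 0.05 (limma adjusted p = 0.7), and without differentiated male replicate 2 it passed the test (log2 0.37, limma adjusted p = 0.0279).

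ITGB1, the beta subunit shared by most integrins of muscle, was the most abundant member in both states (ENSSSCG00000011101, chromosome 10, 61450695 to 61502941, minus strand). Undifferentiated females had 466 and 433 FPKM and undifferentiated males 473 and 510 FPKM. The level was 315 and 285 FPKM in differentiated females, 459 in differentiated male replicate 1 and 331 in differentiated male replicate 2. The states overlapped only through differentiated male replicate 1, which was above undifferentiated female replicate 2. ITGB1 fell from 471 ± 31.5 to 347 ± 76.7 FPKM (SD, n = 4, log2 -0.46 ± 0.127 SE, limma adjusted p = 0.0259), and without differentiated male replicate 1 the log2 fold change was -0.58 (limma adjusted p = 0.00775).

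The ITGB1 call depended on the setting. It ended under median-ratio scaling (log2 -0.23, limma adjusted p = 0.183), under quantile normalization (log2 -0.27, limma adjusted p = 0.168), and without any 1 of the 4 undifferentiated libraries or differentiated female replicate 2 (limma adjusted p = 0.0566 to 0.0798). In rank ITGB1 moved little, from the percentile 97.5 to 97.7 of tested genes to 97.0 to 97.7.

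ITGB5, which pairs with alpha V as a vitronectin receptor, fell more steeply (ENSSSCG00000024844, chromosome 13, 145063935 to 145108286, plus strand). Its levels were 44.1 and 42.1 FPKM in undifferentiated females, 21.4 and 24.9 in undifferentiated males, 13.5 and 9.60 in differentiated females, and 7.20 and 10.5 in differentiated males. All differentiated libraries were below all undifferentiated ones, and in undifferentiated cells both females stood above both males. The mean went from 33.1 ± 11.6 to 10.19 ± 2.59 FPKM (SD, n = 4, log2 -1.57 ± 0.159 SE, limma adjusted p = 0.000616), with log2 fold changes of -1.69 to -1.36 over the 14 alternatives.

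ITGB3, the beta subunit of the platelet fibrinogen receptor and of a vitronectin receptor, was the lowest member in both states (ENSSSCG00000017306, chromosome 12, 16717754 to 16775469, minus strand). It was at 3.28 and 1.22 FPKM in undifferentiated females and 3.68 and 5.82 in undifferentiated males. Differentiated females had 2.44 and 4.10 FPKM and differentiated males 8.20 and 3.45 FPKM. The states overlapped and no direction was called (log2 0.31, 95% interval -0.53 to 1.15, limma adjusted p = 0.483). Its platelet partner ITGA2B was at 1.03 ± 0.158 and 0.964 ± 0.200 FPKM in the 2 states (SD, n = 4), below the filter.

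The talins parted from each other. TLN1, the talin found in nearly all cells (ENSSSCG00000005317, chromosome 1, 264141075 to 264169348, minus strand), was at 113 and 110 FPKM in undifferentiated females, 120 and 111 in undifferentiated males, 98.6 and 102 in differentiated females, and 110.0 and 105 in differentiated males. Every differentiated library was below every undifferentiated one, but by little, and the difference did not pass the test. The log2 fold change was -0.13 (95% interval -0.31 to 0.05, limma adjusted p = 0.191), and it was 0.10 under median-ratio scaling (limma adjusted p = 0.313), so no direction is given.

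TLN2 is the second talin and is enriched in striated muscle and brain. Its row spans 8336 bases of chromosome 1 (ENSSSCG00000024088, 120431331 to 120439666, minus strand), a short model for a talin gene, and which of its exons the model holds was not tested. Undifferentiated females had 65.5 and 59.3 FPKM and undifferentiated males 59.0 and 58.4 FPKM. Differentiated females had 29.4 and 21.1 FPKM and differentiated males 27.4 and 30.8 FPKM. The states were separate, and TLN2 fell from 60.6 ± 3.32 to 27.2 ± 4.28 FPKM (SD, n = 4, log2 -1.14 ± 0.124 SE, limma adjusted p = 0.000786), with log2 fold changes of -1.26 to -0.92 over the 14 alternatives.

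Counted together, 6 of the 9 members had all differentiated libraries below all undifferentiated ones, and 0 had them all above. Over all tested genes these shares were 30.2% and 17.1%. TLN1 was among the 6 without passing the test, and ITGB1 passed the test without being among them. In differentiated male replicate 1, 6 of the 9 members, including ITGA5, ITGB1 and ITGB3, were above the other 3 differentiated libraries, where 29.7% of all tested genes were. ITGB5 was below them there, as were 24.1% of all tested genes. The part of the proliferation and fibroblast markers of that library in these levels was not tested.

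By mean level, the order in undifferentiated cells was ITGB1, ITGA6, ITGA3, TLN1, ITGAV, TLN2, ITGB5, ITGA5 and ITGB3. The place of TLN2, here and in differentiated cells, rests on its short gene model. Neighbours overlapped between libraries except at the steps from ITGA6 to ITGA3, from TLN2 to ITGB5 and from ITGA5 to ITGB3. In differentiated cells ITGB1, ITGA6 and TLN1 led without overlap with their neighbours. ITGA5, ITGAV and TLN2 followed at means of 28.4, 28.3 and 27.2 FPKM, with overlap, and ITGB5, ITGA3 and ITGB3 came last, also with overlap. ITGA3 thus went from the third place to the eighth, and ITGA5 from the eighth to the fourth.

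The make-up of each pool followed from these levels and is given as a description. Of the FPKM summed over the 4 matched alpha members, ITGA6 made 61.7 ± 6.56% in undifferentiated and 78.8 ± 4.35% in differentiated libraries (SD, n = 4). The share of ITGA3 was 20.7 ± 7.32% and then 3.01 ± 1.59%, and it did not overlap between the states. ITGA5 had 3.80 ± 0.733% and then 9.21 ± 3.02%, also without overlap. ITGB1 made 90.8 and 90.9% of the 3 beta members in undifferentiated females, 94.96 and 94.3% in undifferentiated males, and 95.2 to 96.8% in differentiated libraries. Over all 8 matched beta subunits the ITGB1 share overlapped between the states, at 87.6 to 91.4% and then 88.5 to 94.0%, with ITGB6 at 0.184 ± 0.0653% and then 3.78 ± 1.74%. ITGA6 made 58.8 ± 5.60% and then 67.8 ± 5.56% of all 17 matched alpha subunits. TLN1 made 65.2 ± 1.51% of the talin sum and then 79.3 ± 2.71%. These talin shares rest on the short model of TLN2, and how far they depend on it was not tested.

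**Figure D2:**
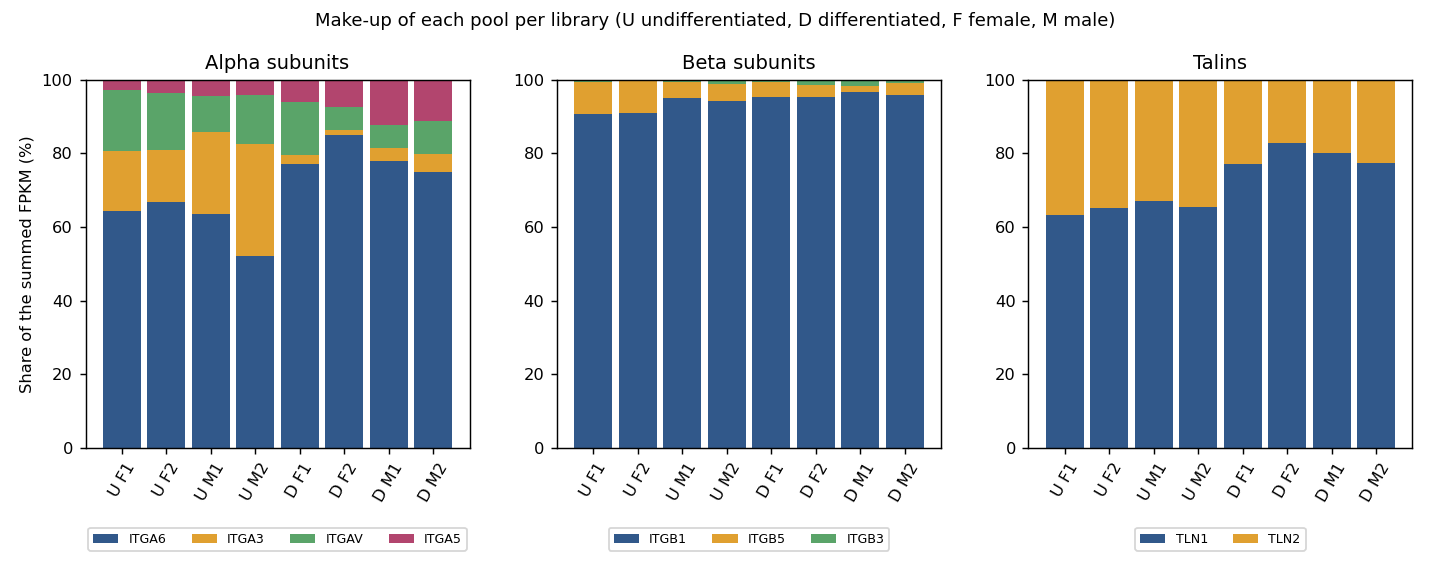
Share of each gene in the FPKM summed over the 4 alpha members, the 3 beta members and the 2 talins, in percent, with 1 bar per library. The ITGA3 band has means of 20.7% and then 3.01% of the alpha sum, and ITGB1 fills over 90% of the beta sum in every library. The TLN1 share has means of 65.2% and 79.3%, with TLN2 read from a short gene model.

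The summed levels of the pools, in FPKM as given, were also lower, and they were neither rescaled nor tested. The alpha members summed to 569 to 693 FPKM in undifferentiated and to 248 to 355 FPKM in differentiated libraries. The beta members summed to 476 to 541 FPKM and to 299 to 474 FPKM, the 474 being that of differentiated male replicate 1. ITGB1 made most of the beta sum, and its own call ended under median-ratio scaling and quantile normalization. In each undifferentiated library the alpha sum was above the beta sum. Over the members, this held in differentiated cells for female replicate 1 alone, with 343 against 330 FPKM. With all matched subunits counted it held in differentiated female replicate 2 as well, with 334 against 323 FPKM. ITGA7 is not in these sums.

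Within females alone, 5 members fell (ITGA3, ITGAV, ITGB1, ITGB5 and TLN2), where 23.3% of all tested genes fell. Within males 4 fell (ITGA3, ITGAV, ITGB5 and TLN2), against 20.1% of all tested genes. ITGA6 missed the threshold within each sex with nearly equal log2 fold changes of -0.67 in females (limma adjusted p = 0.058) and -0.67 in males (limma adjusted p = 0.0626). The difference of the effect between the sexes passed the test for 0 of the 9 members, while 0.0231% of all tested genes passed. At an unadjusted p under 0.05, limma gave 0 members and 6.03% of all tested genes. The widest gap was that of ITGB5, where the male effect minus the female effect was 0.52 ± 0.317 SE on the log2 scale (limma adjusted p = 0.831).

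**Figure D3:**
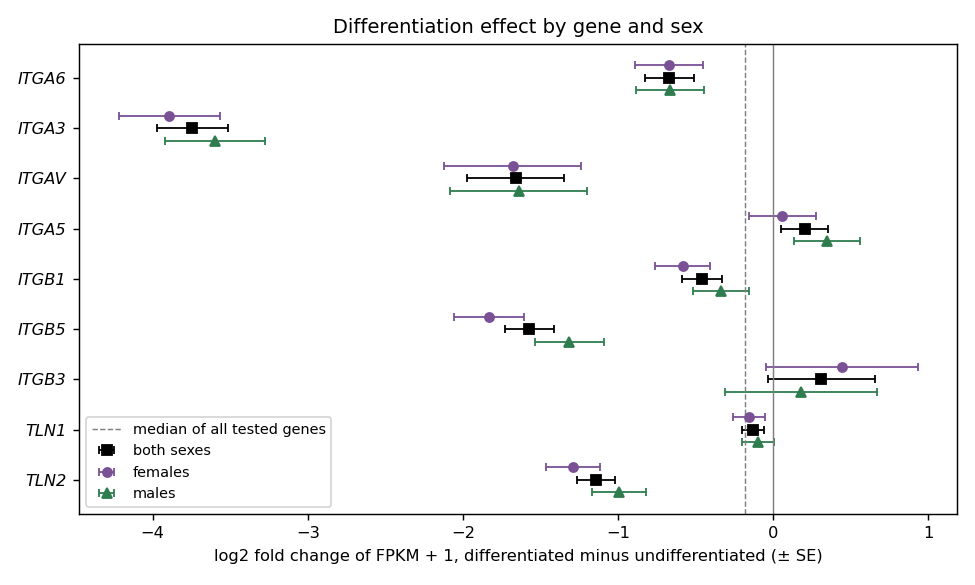
Log2 fold change of FPKM + 1 from undifferentiated to differentiated cells for each gene, with SE bars, for both sexes together (squares), females (circles) and males (triangles). The dashed line is the median of all tested genes at -0.18, and ITGA3 lies farthest to the left at -3.75.

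Between the sexes, averaged over the states, 0 members passed the test and 0.0849% of all tested genes did. At an unadjusted p under 0.05, limma gave 3 members, ITGA3, ITGA5 and ITGB5, where 9.73% of all tested genes reached that level. ITGA3 was lower in females, with 96.3 against 164 FPKM in undifferentiated and 5.74 against 12.5 FPKM in differentiated cells (log2 female minus male -0.92 ± 0.230 SE, limma adjusted p = 0.417). ITGA5 was lower in females too (log2 -0.55 ± 0.151 SE, limma adjusted p = 0.428). ITGB5 was higher in females, with 43.1 against 23.2 FPKM and 11.5 against 8.85 FPKM (log2 0.61 ± 0.159 SE, limma adjusted p = 0.419). These differences did not hold after adjustment.

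The other integrin subunits were read from a list of 18, all matched and 11 of them tested. Of these, 6 rose (54.5%, against 18.0% of all tested genes), 2 fell (18.2%, against 31.9%) and 3 did not pass. The filter bears on this count, since 4 of the 11 (ITGA1, ITGA4, ITGA9 and ITGB6) had a mean under 1 FPKM in undifferentiated cells and passed only through the differentiated ones. ITGB4, the partner of alpha 6 in epithelia, was at 1.43 ± 0.768 and then 0.152 ± 0.0525 FPKM (SD, n = 4), with all differentiated libraries below, and was filtered out. Without the filter 7 subunits rose and 3 fell. ITGA4, which binds VCAM1 and fibronectin, rose from 0.507 ± 0.0772 to 15.7 ± 4.41 FPKM (SD, n = 4, log2 3.43, limma adjusted p = 0.000133). ITGB6, a partner of alpha V that activates latent TGF-beta, rose from 0.977 ± 0.368 to 13.6 ± 5.10 FPKM (SD, n = 4, log2 2.80, limma adjusted p = 0.000764). ITGA9 rose from at most 0.684 FPKM to 7.01 ± 3.37 FPKM (SD, n = 4, limma adjusted p = 0.002). Beside ITGB6, a subunit known from epithelia, the 4 epithelial markers summed to at most 0.249 FPKM in undifferentiated and to 21.1 to 36.6 FPKM in differentiated libraries, nearly all of it CDH1, and their part in the result was not tested. ITGA4, ITGB6 and ITGA9 came from levels near 1 FPKM or less and ended well below ITGA6. By mean in differentiated cells, ITGA4 was above ITGA3 (9.12 FPKM) and ITGB6 above ITGB5 (10.19 FPKM), both with overlap between libraries. ITGA9 was below ITGA3.

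ITGA1 and ITGA2, the collagen-binding subunits, rose to 2.81 ± 0.955 and 4.83 ± 0.756 FPKM (SD, n = 4, limma adjusted p = 0.0045 and 0.0019). ITGA8 rose with overlap between the states (limma adjusted p = 0.032), a call that ended with the replicate block (limma adjusted p = 0.073) and on leaving out any 1 library other than replicate 2 of the males in either state (limma adjusted p = 0.051 to 0.0961). Among the falls, ITGA10, a collagen receptor best known from cartilage, went from 15.6 ± 5.12 to 2.30 ± 1.28 FPKM (SD, n = 4, limma adjusted p = 0.00246). ITGB8, another partner of alpha V, went from 16.2 ± 0.325 to 7.63 ± 1.23 FPKM (SD, n = 4, limma adjusted p = 0.000551). Across the 17 alpha subunits of both sets with a row in the table, ITGA4 made 0.0769 ± 0.00879% of the summed FPKM in undifferentiated and 4.41 ± 1.33% in differentiated libraries. The genes ITGA1, ITGA2, ITGA8 and ITGB4 were named after their values were seen.

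Regulators of integrin activity had 9 tested genes of 12 matched, of which 4 rose, 1 fell and 4 did not pass, with a median log2 fold change of 0.24. The shares that rose and fell were 44.4% and 11.1%, against 18.0% and 31.9% of all tested genes. FERMT2, the kindlin that works beside talin on beta tails, rose from 77.7 ± 5.00 to 161 ± 13.8 FPKM (SD, n = 4, log2 1.04, limma adjusted p = 0.00031). RAPGEF1, an exchange factor for the small GTPase RAP1, rose from 17.3 ± 1.64 to 37.5 ± 2.63 FPKM (SD, n = 4, log2 1.08, limma adjusted p = 0.000316). DAB2, an endocytic adaptor that binds beta tails, rose with a log2 fold change of 2.17, and the fourth was RAP1B (log2 0.95), named after its value was seen. DOK1, an adaptor that competes with talin for beta tails, fell from 3.63 ± 0.683 to 1.93 ± 0.512 FPKM (SD, n = 4, limma adjusted p = 0.016). Its call ended without undifferentiated female replicate 2 or undifferentiated male replicate 1 (limma adjusted p = 0.0542 and 0.0512).

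Focal adhesion adaptors and kinases, 22 tested of 25 matched, had 3 that rose, 7 that fell and 12 that did not pass, with a median of -0.23. These are 13.6% and 31.8% of the list, near the 18.0% and 31.9% of all tested genes, so the counts show nothing about the list as a whole. Under median-ratio scaling 5 rose and 6 fell. The filter bears on the rises here too. LIMS2 and TNS3, 2 of the 3 that rose, had means of 0.932 and 0.664 FPKM in undifferentiated cells. They passed the filter only through the differentiated libraries. The PINCH proteins, which bind the integrin-linked kinase, went apart, since LIMS2 rose from 0.932 ± 0.251 to 89.2 ± 13.2 FPKM (SD, n = 4, log2 5.54, limma adjusted p = 4.39e-06) and LIMS1 fell from 84.9 ± 4.40 to 41.3 ± 3.99 FPKM (SD, n = 4, log2 -1.03, limma adjusted p = 0.000316). KANK1, a talin-binding scaffold, rose by a log2 fold change of 1.98 and TNS3, a tensin, by 1.26. The largest falls were those of TES, ACTN1 and ZYX, the actin-linked adaptors testin, alpha-actinin 1 and zyxin, at -1.69, -1.31 and -1.24. VCL, the vinculin that talin recruits under force, was at 163 ± 13.3 and 161 ± 13.9 FPKM (SD, n = 4, log2 -0.02 ± 0.0918 SE, limma adjusted p = 0.879). LIMS1 and VCL were named after their values were seen.

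Partners of the muscle costamere and myotendinous junction moved mostly upwards. Of 15 tested genes, 14 rose, 0 fell and 1 did not pass, with a median log2 fold change of 3.32, and 0 fell at an unadjusted p under 0.05 in limma. The share that rose was 93.3%, against 18.0% of all tested genes. The list holds DES, given above as a marker of formed muscle, and genes of the Z-disc. Whether its genes rose apart from muscle differentiation as such was not tested. Of all tested genes 31.9% fell, and 36.0% were lower at that unadjusted p. With the replicate block 1 fell, SORBS3, a vinculin-binding adaptor (log2 -0.51, limma adjusted p = 0.0249 with the block and 0.161 without). LDB3 and ACTN2, of the Z-disc, rose the most, at log2 7.96 and 7.71, followed by SVIL, supervillin, at log2 5.82. LDB3 and SVIL had means of 0.347 and 0.645 FPKM in undifferentiated cells. These 2 passed the filter only through the differentiated libraries, which bears on the count of rises. ITGB1BP2, melusin, a muscle protein that binds the beta 1 tail, rose from 2.64 ± 1.36 to 98.2 ± 24.4 FPKM (SD, n = 4, log2 4.82, limma adjusted p = 4.92e-05). ITGB1 itself was lower by mean in differentiated cells, with overlap between the states, and its call ended in 7 of the 14 alternatives. SORBS3 and ITGB1BP2 were named after their values were seen.

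Matrix ligands moved in both directions, with 5 of 17 tested genes that rose, 10 that fell and 2 that did not pass, and a median log2 fold change of -0.60. The shares that rose and fell were 29.4% and 58.8%, against 18.0% and 31.9% of all tested genes. Under median-ratio scaling 6 rose and 8 fell. The call of NID1, 1 of the rises, ended in 7 of the 14 alternatives, and that of TNC, 1 of the falls, in 3. NID1 and TNC were named after their values were seen. FN1, fibronectin, the ligand of alpha 5 beta 1, fell from 509 ± 180 to 125 ± 99.3 FPKM (SD, n = 4, log2 -2.22, limma adjusted p = 0.00463), with overlap between the states. SPP1, osteopontin, and CYR61, ligands of alpha V integrins, fell with log2 fold changes of -2.44 and -2.33. LAMA4, a laminin alpha chain, rose from 1.66 ± 0.956 to 18.1 ± 6.02 FPKM (SD, n = 4, log2 2.84, limma adjusted p = 0.000625), and NID2, a basement membrane linker, with a log2 fold change of 2.16. Of the other laminin chains tested, LAMB2 rose (mean 32.6 to 109 FPKM), while LAMB1 (172 to 67.1 FPKM) and LAMC1 (157 to 95.2 FPKM) fell. LAMA1, LAMA2 and LAMA5 were matched to no row. COL1A1 rose too (log2 2.59), in a row that spans only 526 bases. In differentiated male replicate 1, 13 of the 17 ligands were above the other 3 differentiated libraries, against 29.7% of all tested genes. Without it 4 rose and 10 fell, and the part of its fibroblast markers in these levels was not tested.

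Tetraspanins and other lateral partners of integrins had 9 tested genes, of which 6 fell, 0 rose and 3 did not pass, with a median of -0.86 and 0 that rose at an unadjusted p under 0.05 in limma. The share that fell was 66.7%, against 31.9% of all tested genes. Of all tested genes 18.0% rose, and 20.7% were higher at that unadjusted p. SLC3A2, the CD98 heavy chain that binds beta tails, fell from 54.0 ± 8.20 to 21.9 ± 2.06 FPKM (SD, n = 4, log2 -1.26, limma adjusted p = 0.000846). BSG, basigin, fell with a log2 fold change of -0.98, and CD82, a tetraspanin, fell from 155 ± 26.1 to 84.5 ± 14.7 FPKM (SD, n = 4, log2 -0.87, limma adjusted p = 0.00645). The call of CD9 (limma adjusted p = 0.0464) ended in 10 of the 14 alternatives, 7 of them with 1 library left out. That of CD63 ended under quantile normalization (limma adjusted p = 0.245). CD9 and CD63 were named after their values were seen.

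**Figure D4:**
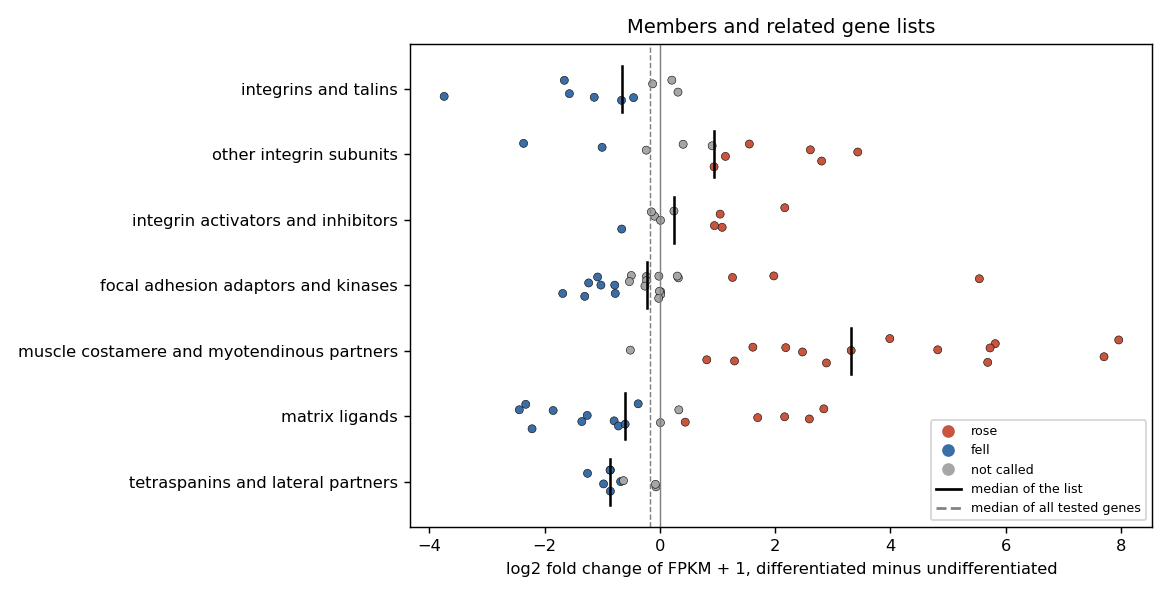
Log2 fold change of FPKM + 1 of each tested gene, by list, with red for genes that rose, blue for genes that fell and grey for genes that did not pass the test. Black bars are list medians, from -0.86 in the tetraspanins and lateral partners to 3.32 in the costamere and myotendinous partners, and the dashed line is the median of all tested genes at -0.18.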

How the data were processed

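The deposited table holds FPKM for 8 libraries, 1 column each, made by the authors from a stranded total RNA kit read as 100-base paired ends, per the labels' protocols. Per the submitters' processing notes, cutadapt 1.6, TopHat2 2.0.12.1, Cufflinks 2.2.1 and the build Sscrofa10.2 were used, with settings not given in the sources used here. Symbols came from the table, or from an Ensembl identifier table where the table gave none or another name. A symbol on several rows took the row of highest mean.

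FPKM are not counts, so limma 3.58.1 in R 4.3.3 was run on log2(FPKM + 1) for the 12963 genes whose mean reached 1 FPKM, with 4 group means (state by sex), no block, a mean-variance trend, 4 residual and 2.09 prior degrees of freedom, and Benjamini-Hochberg adjustment over all genes. Fold changes are on that scale, which understates those of low genes. The fit was tested on simulated data. Alternatives were a pseudocount of 0.1, no filter, median-ratio scaling, quantile normalization, a replicate block, genes under 300 bp left out, and each library left out in turn.

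Same-numbered libraries of 1 sex deviated together weakly from their group means (r = 0.113 in females and 0.126 in males, over genes of at least 300 bp). A block that pairs them by number was therefore run as an alternative only, and the main fit does not use it. Whether the libraries are paired is not known. The pairing comes from the data, not from a label, and groups of 2 give only these 2 values. By the rule for named genes these are all members, up to 3 risen and 3 fallen per list, and the 3 most alike in profile to ITGA3 and ITGB1. List genes outside that rule were named after their values were seen. The members and lists were chosen with earlier results of these data known. No sequences are shown, since protein and promoter tables were not used here.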

Additional observations from a re-analysis of the deposited data

Results flagged for a closer look

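ITGAV was at 50.1 FPKM in differentiated female replicate 1, against 18.6 to 22.2 FPKM in the other 3 differentiated libraries, a gap of 0.887 of the range, which is above Dixon's 95% critical value for 4 libraries. TLN2 was at 65.5 FPKM in undifferentiated female replicate 1, against 58.4 to 59.3 FPKM in the other 3 undifferentiated libraries, a gap of 0.870 of the range. Of the 18 sets of 4 libraries examined (9 genes in 2 states), chance marks about 1 in 20.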

How the results depend on the processing

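The 14 alternatives kept 116 of the 126 log2 fold changes of the 9 members on the same side of the threshold, with no change of direction among called values. Of the other 10, 9 ended a call (ITGA6 in 2 and ITGB1 in 7 alternatives) and 1 made one (ITGA5). The number of members that fell was 4 to 6, and that of members that rose was 0 to 1 when 1 library was left out, the 1 being ITGA5 without differentiated male replicate 2. Under median-ratio scaling, which moved the median of all tested genes by 0.20, 5 focal adhesion genes rose in place of 3. The added ones were TNS1 and ACTN4 (log2 0.55 and 0.53, limma adjusted p = 0.0192 and 0.0251). In place of 1, 0 to 1 regulators of integrin activity fell when 1 library was left out. With the replicate block 1 costamere gene fell in place of 0. That pairing changed none of the members' calls. Among the list genes it ended those of ITGA8, NID1 and CD9 (limma adjusted p = 0.073, 0.0833 and 0.0772) and made those of SORBS3, TRIP6, COL4A2 and PLAUR. ITGB1 was at a limma adjusted p of 0.0495 with it. The number of tested genes that rose was 1909 to 3220 and that fell 2920 to 4226 over the alternatives. Depth in reads is unknown, which limits the low members most, ITGB3 above all.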

Other observations

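Among 10172 named genes of at least 300 bp, the profiles most like that of ITGA3 over the 8 libraries were those of SRXN1, an antioxidant enzyme (Pearson's r = 0.998 of log2 values), NIPSNAP1 (0.995) and XPO5, an export factor of microRNA precursors (0.994). All of them fell, by smaller log2 fold changes of -1.91, -1.41 and -1.36. For ITGB1 they were BAK1, an apoptosis effector (r = 0.996), NFYB, a subunit of the CCAAT-binding factor (0.989), and TMEM59L (0.987). The libraries share the difference between the states, so these values are descriptions.

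Within groups, where only the deviations of libraries from their group mean count, the nearest were SLC27A4 (r = 0.999), ADAT2 (0.997) and PSTK (0.992) for ITGA3. For ITGB1 they were BAK1 and MTCH2 (both above 0.999, at 0.9996 and 0.9994) and SHOX2 (0.998). Groups of 2 leave 4 free values per gene, and many candidates were searched.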
